A study of Drosophila melanogaster with 8 samples.

Results

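Cytosolic ribosomal proteins build the 2 subunits of the ribosome that translates nuclear mRNAs, and their genes were read here in the heads of C9 flies, in which a repeat of the C9orf72 disease type was switched on in adult neurons. The genes were chosen by name, as every entry of the deposited table that begins with RpL, RpS or RpLP followed by a digit, and mitochondrial ribosomal proteins, whose names begin with mRp, were left out. The rule gave 92 of 16727 genes, of which 52 carry the name of a protein of the large (60S) subunit, 38 that of a protein of the small (40S) subunit, and 2 more (RpL24-like and RpLP0-like) are named after ribosomal proteins but encode assembly factors. The pattern misses sta, the fly RpSA gene, and Rack1, a scaffold on the small subunit, which are described separately.

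All flies were females of genotype (G4C2)36; elavGS, 7 d old, from stocks backcrossed to w1118 or v-w1118. The 4 induced libraries came from flies fed 200 µM RU486 for 5 d. The 4 uninduced libraries came from flies of the same genotype and age fed the ethanol vehicle for 5 d, and each library was made from 15 whole heads. The elavGS driver is active in neurons and is switched on by feeding RU486. The libraries, in contrast, sum over neurons, glia, photoreceptors, fat body and all other cells of the head. Flies fed RU486 but lacking the repeat were not among the groups, so the drug and the repeat cannot be told apart. In such bulk samples fewer cells of a type and less RNA per cell cannot be told apart either.

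Ribosomal proteins are needed in about equal numbers and assemble with ribosomal RNA in the nucleolus, with the help of many assembly factors, before both subunits are exported to the cytoplasm. Their mRNAs are among the most abundant of any cell, are short, and are usually regulated together, with growth signals such as TOR and Myc promoting ribosome production. In Drosophila, loss of 1 copy of many of these genes gives the Minute phenotype of slow growth and short bristles, and the transcription factor Xrp1 is induced in such cells.

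The depth was even, from 13247282 to 14962813 counts per library. A total of 70 of the 92 genes had at least 10000 counts in every library, so counting error was small beside the spread between libraries. The genes that passed the filter on low counts numbered 83, and they included 49 of the 100 most abundant genes tested. Uninduced replicate 4 stood apart from the other uninduced libraries. It was the highest uninduced library for 77 of the 83 genes, and uninduced replicate 3 was the lowest for 79. On the log2 scale the median deviation of the 83 genes from their uninduced mean was 0.01, -0.03, -0.16 and 0.19 in uninduced replicates 1 to 4, and -0.23, -0.28, -0.34 and -0.33 in induced replicates 1 to 4. All 4 induced libraries were thus below the lowest uninduced library in this measure, by 0.07 for the closest pair, while the uninduced libraries themselves spanned 0.36.

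As a whole the ribosomal protein genes were lower in induced heads. Of the 83 genes tested, 78 fell and 0 rose (adjusted p under 0.05, quasi-likelihood test of edgeR, Benjamini-Hochberg adjustment over 9905 genes), a share of 94.0% where 18.8% of all genes tested fell and 17.7% rose. All 83 estimates were below 0, so none was higher at an unadjusted p under 0.05 either, and DESeq2 called 79 of 90 lower and 0 higher where it called 15.0% of all genes lower and 13.9% higher. The falls were small and alike. The median log2 fold change of induced over uninduced heads (log2FC) was -0.30, or 18.7% lower, with quartiles of -0.33 and -0.26 and a median standard error (SE) of 0.07, whereas the median of all genes tested was 0.00. No gene passed a log2FC of 0.58 in either direction, a size that 4.04% of all genes tested passed downwards and 4.02% upwards. The 4 induced values lay below all 4 uninduced values for 74 genes, or 89.2% of those tested, against 17.9% of all genes tested, and above them for 0 genes, against 18.1%. Without uninduced replicate 4 the median was -0.22 with 77 genes lower and 0 higher, where 17.7% of all genes fell and 17.6% rose. Without uninduced replicate 3 it was -0.35 with 81 lower and 0 higher, where 17.1% fell and 17.4% rose.

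**Figure D1:**
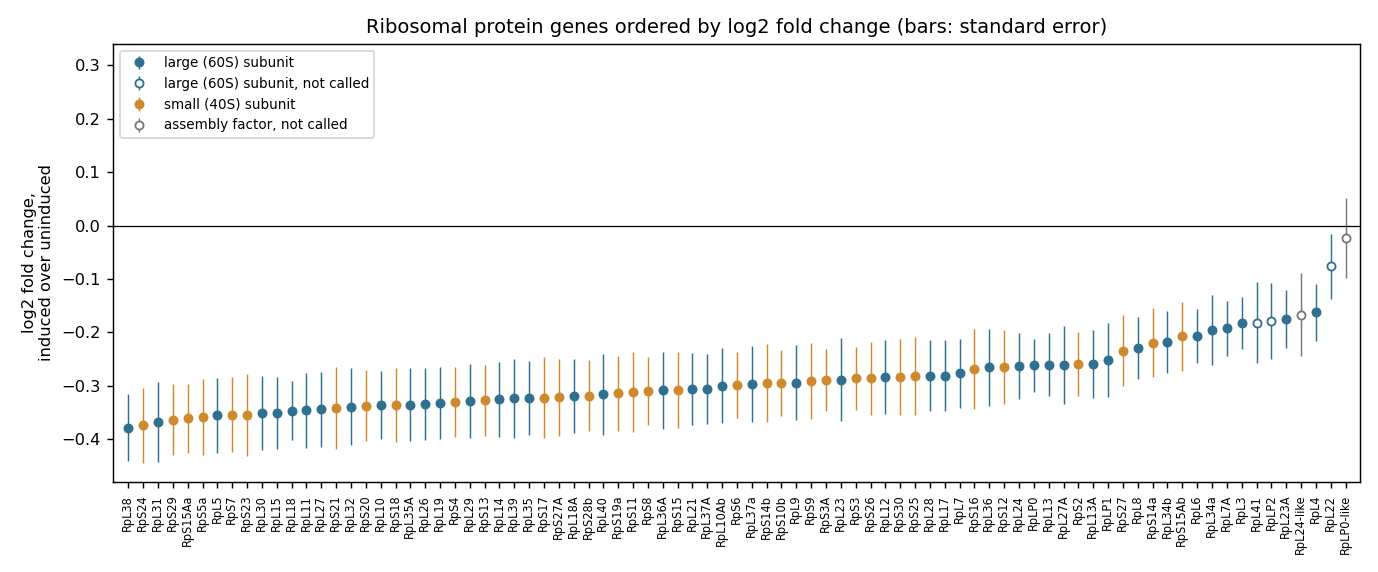
Log2 fold change (induced over uninduced) of the 83 ribosomal protein genes tested, in order of size, with bars of 1 standard error and 4 libraries per group. All points lie below 0, between -0.38 for RpL38 and -0.02 for RpLP0-like, and open points mark the 5 genes that were not called.

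The size of the decrease depended on how libraries were scaled. Before any scaling, the 92 genes together took 11.0%, 10.9%, 9.94% and 11.9% of the counts of uninduced replicates 1 to 4 (mean 10.9% ± 0.809, SD, n = 4). In induced replicates 1 to 4 they took 10.3%, 10.3%, 9.82% and 9.99% (mean 10.1% ± 0.250, SD, n = 4). These shares overlap, since uninduced replicate 3 lies within the induced range. The difference of the means was -0.815 percentage points, -0.489 without uninduced replicate 4 and -1.15 without uninduced replicate 3. TMM normalization, which sets the typical gene to no change, gave factors of 0.913 to 0.954 to the uninduced and 1.04 to 1.08 to the induced libraries. After it, the summed CPM of the 92 genes (read counts relative to the scaled library total) were 117048, 113901, 104287 and 130528 in uninduced heads and 99610, 95617, 93137 and 92541 in induced heads, with no overlap. Scaled to the library totals alone, 22 genes fell and 0 rose, with a median log2FC of -0.12. The median of all genes tested then stood at 0.18, and 8.82% of them fell while 45.3% rose. A change of scaling moves all genes nearly alike. The distance between the ribosomal protein genes and the typical gene is therefore the same under both scalings by construction. The share of counts on the 20 most abundant genes other than the ribosomal protein genes was 25.5 to 25.9% in uninduced and 21.4 to 23.7% in induced libraries.

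**Figure D2:**
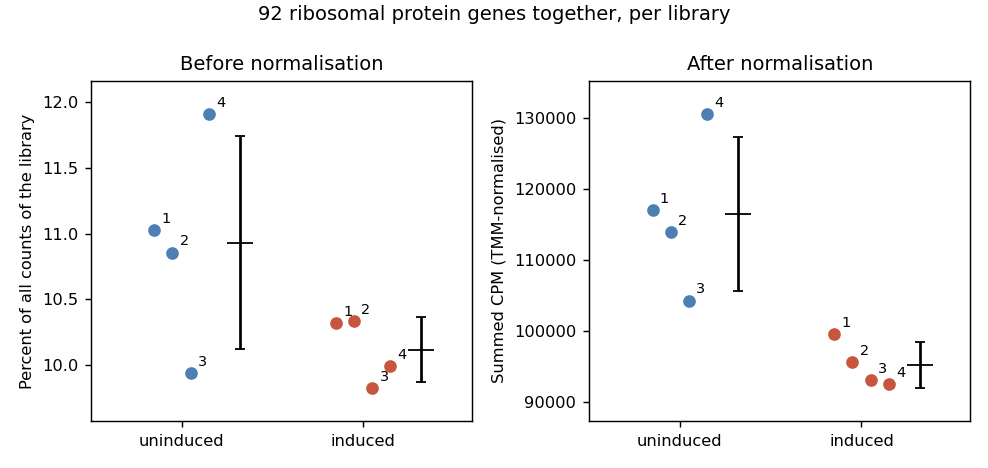
The 92 ribosomal protein genes together in each of the 8 libraries, as a percent of all counts (left) and as summed TMM-normalised CPM (right), with numbered points for replicates and bars for the mean ± SD (n = 4). The shares overlap through uninduced replicate 3 at 9.94%, and the normalised sums do not, with 104287 as the lowest uninduced and 99610 as the highest induced value; neither axis starts at 0.

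Both subunits were lower by about the same amount. Of 48 genes of the large subunit tested, 45 fell, with a median log2FC of -0.30. All 33 genes of the small subunit that were tested fell, with a median of -0.31. The ratio of counts on large-subunit genes to counts on small-subunit genes was 1.64, 1.63, 1.65 and 1.59 in uninduced replicates 1 to 4, and 1.66 to 1.67 in the induced libraries. The means were 1.63 ± 0.0264 and 1.67 ± 0.00318 (SD, n = 4 each), so the induced ratios were all slightly above the uninduced ones, and uninduced replicate 4 was the lowest. The genes are scattered over the genome, and their median was between -0.28 and -0.32 on each of the large chromosome arms 2L, 2R, 3L, 3R and X. On X, 13 of 14 fell, and RpS3A, the member on chromosome 4, had a log2FC of -0.29.

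Among large-subunit genes the largest fall was that of RpL38 (chromosome 2R, 4515388 to 4516458 in dm6), which encodes a small protein near the surface of the subunit. Its level was 297, 348, 310 and 312 CPM in uninduced replicates 1 to 4 and 249, 260, 250 and 217 CPM in induced replicates 1 to 4, a log2FC of -0.38 (SE 0.06, adjusted p = 3.2e-04 in edgeR). Every induced library was below every uninduced one, and uninduced replicate 4 did not stand out for this gene. RpL31 (chromosome 2R, 9587193 to 9587989), which lies at the exit of the tunnel for the nascent chain, had 1403, 1348, 1209 and 1625 CPM in uninduced and 1146, 1061, 1054 and 1066 CPM in induced heads, a log2FC of -0.37 (SE 0.08, adjusted p = 0.0015 in edgeR). Here uninduced replicate 4 was the highest value and the groups were separate even without it.

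Small-subunit genes reached falls of the same size. RpS24 (chromosome 2R, 22640526 to 22641419) had 1246, 1201, 1107 and 1436 CPM in uninduced and 998, 988, 942 and 923 CPM in induced heads, a log2FC of -0.37 (SE 0.07, adjusted p = 7.8e-04 in edgeR). RpS29 (chromosome 3R, 9778042 to 9779528), a small zinc-binding protein of the head of the subunit, fell from 1802 ± 188 to 1401 ± 37.4 CPM (SD, n = 4 each; log2FC -0.36). RpS15Aa (chromosome X, 13335637 to 13337705) fell from 1420 ± 136 to 1106 ± 41.8 CPM (SD, n = 4 each; log2FC -0.36). In these 3 genes the uninduced libraries were more spread than the induced ones, and the groups did not overlap.

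RpL5 and RpL11 bind a small ribosomal RNA together before it joins the large subunit, and in mammals free RpL5 and RpL11 hold back the p53 inhibitor MDM2. RpL5 (chromosome 2L, 22532279 to 22536884) had 3395, 3228, 3005 and 3852 CPM in uninduced and 2769, 2615, 2534 and 2622 CPM in induced heads, a log2FC of -0.36 (SE 0.07, adjusted p = 0.0012 in edgeR). RpL11 fell from 1357 ± 157 to 1068 ± 31.8 CPM (SD, n = 4 each), a log2FC of -0.35. RpL10, which completes the large subunit late in its maturation, fell from 1892 ± 168 to 1499 ± 55.0 CPM (log2FC -0.34). The groups of these 3 genes did not overlap.

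RpS6, the small-subunit protein phosphorylated by S6 kinase downstream of TOR, had 1896, 1869, 1667 and 2057 CPM in uninduced and 1581, 1517, 1477 and 1515 CPM in induced heads, a log2FC of -0.30 (SE 0.06, adjusted p = 0.0016 in edgeR). RpS3, at the entry of the mRNA channel, fell from 1435 ± 112 to 1177 ± 41.1 CPM (log2FC -0.29). RpS2, which also lies at that entry, fell from 1666 ± 125 to 1392 ± 55.0 CPM (log2FC -0.26). RpS12, which in Drosophila acts in the competition between cells with fewer and more copies of ribosomal protein genes, fell by 0.26 on the log2 scale (SE 0.07, adjusted p = 0.0086 in edgeR). RpS25, whose loss lowers repeat-associated translation of C9orf72 repeats in cells and flies, had 1906, 1757, 1595 and 2110 CPM in uninduced and 1579, 1515, 1476 and 1488 CPM in induced heads, a log2FC of -0.28 (SE 0.07, adjusted p = 0.0075 in edgeR). Its lowest uninduced value, in replicate 3, was close to its highest induced value, in replicate 1.

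RpL32, known as rp49 and used as a reference gene in fly RT-qPCR, was among the genes that fell. It had 1147, 1073, 988 and 1312 CPM in uninduced and 931, 890, 870 and 883 CPM in induced heads, a log2FC of -0.34 (SE 0.07, adjusted p = 0.0022 in edgeR), which is 20.9% lower. All induced values were below all uninduced values, and the highest of the 8 was again uninduced replicate 4.

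The stalk of the large subunit, built from RpLP0 and copies of RpLP1 and RpLP2, recruits the translation factors that hydrolyse GTP. RpLP0 had 1720, 1698, 1600 and 1664 CPM in uninduced and 1443, 1400, 1401 and 1329 CPM in induced heads, a log2FC of -0.26 (SE 0.05, adjusted p = 7.9e-04 in edgeR). The uninduced libraries were tight for this gene, and replicate 4 was not the highest. RpLP1 fell from 2332 ± 227 to 1960 ± 109 CPM (log2FC -0.25, adjusted p = 0.011 in edgeR). RpLP2 had 1322, 1327, 1146 and 1498 CPM in uninduced and 1244, 1160, 1111 and 1161 CPM in induced heads, and its log2FC of -0.18 was not called (adjusted p = 0.064 in edgeR). Its groups overlapped through uninduced replicate 3, although DESeq2 called it lower.

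Both ubiquitin fusion genes, whose products are cut into ubiquitin and a ribosomal protein, fell together. RpS27A had 1778, 1700, 1564 and 2059 CPM in uninduced and 1480, 1408, 1384 and 1411 CPM in induced heads (log2FC -0.32, adjusted p = 0.0028 in edgeR). RpL40 had 1431, 1382, 1278 and 1711 CPM in uninduced and 1227, 1142, 1129 and 1161 CPM in induced heads (log2FC -0.32, adjusted p = 0.0045 in edgeR). In each gene the groups were separate, with uninduced replicate 3 the closest to the induced values.

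The smallest falls among called genes were those of RpL4 (log2FC -0.16), RpL23A (-0.18), RpL3 (-0.18), RpL7A (-0.19) and RpL34a (-0.20), all of the large subunit. RpL4, whose loop reaches into the exit tunnel, had 1719, 1749, 1613 and 1573 CPM in uninduced and 1555, 1457, 1512 and 1421 CPM in induced heads. RpL3, which lies close to the peptidyl transferase centre, had 2721, 2677, 2538 and 2679 CPM in uninduced and 2405, 2339, 2348 and 2265 CPM in induced heads (SE 0.05, adjusted p = 0.0094 in edgeR). Groups of both genes were separate, and uninduced replicate 4 was not the highest library in either. The calls of RpL3 and RpL7A held in each fit that left out a library, and those of the other 3 genes did not. RpL4 lost its call without uninduced replicate 1 or 2 or induced replicate 2, 3 or 4 (adjusted p = 0.051 to 0.098 in edgeR), and RpL23A without uninduced replicate 1 or 2 or induced replicate 2 or 4 (adjusted p = 0.053 to 0.078 in edgeR). RpL34a lost it without uninduced replicate 1 or 4 or induced replicate 3 or 4 (adjusted p = 0.082 to 0.091 in edgeR), and RpS15Ab, of the small subunit, without uninduced replicate 1 or 4 or induced replicate 1 or 4 (adjusted p = 0.051 to 0.074 in edgeR).

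Of the 5 genes that were not called, 3 belong to the large subunit. RpL22 (chromosome X, 762560 to 765130), an RNA-binding protein of the outer large subunit, had 627, 672, 611 and 542 CPM in uninduced and 587, 582, 600 and 556 CPM in induced heads, a log2FC of -0.08 (SE 0.06, adjusted p = 0.36 in edgeR). Uninduced replicate 4 was the lowest of all 8 libraries for RpL22, the reverse of its place for most other members, and without it the gene was called lower (log2FC -0.12, adjusted p = 0.041 in edgeR). RpL41 (chromosome 2R, 24903416 to 24903935), the smallest ribosomal protein, had 2492, 2311, 2080 and 2790 CPM in uninduced and 2228, 2137, 2062 and 2101 CPM in induced heads, a log2FC of -0.18 (SE 0.08, adjusted p = 0.076 in edgeR). Values of its groups overlapped through uninduced replicate 3. The third was RpLP2, and both RpL41 (log2FC -0.24, adjusted p = 0.014 in edgeR) and RpLP2 (-0.23, adjusted p = 0.010 in edgeR) were called lower without uninduced replicate 3.

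RpL24-like and RpLP0-like, which take part in large-subunit assembly and are not subunits of the finished ribosome, were the other genes not called. RpL24-like had 169, 172, 140 and 192 CPM in uninduced and 150, 161, 144 and 143 CPM in induced heads (log2FC -0.17, SE 0.08, adjusted p = 0.11 in edgeR). RpLP0-like had 31.1, 26.9, 26.8 and 31.6 CPM in uninduced and 28.7, 31.0, 26.0 and 29.1 CPM in induced heads (log2FC -0.02, SE 0.07, adjusted p = 0.84 in edgeR). Values of the groups were interleaved for both genes, and RpL24-like was called lower without uninduced replicate 3 (log2FC -0.24, adjusted p = 0.0084 in edgeR).

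Levels of different genes were compared per kilobase of mRNA, as the mean CPM of uninduced heads divided by the mRNA length. On this scale RpL41 was highest, with 7557 CPM per kb, and RpLP0-like lowest, with 30.7 CPM per kb. RpS15Ab followed RpLP0-like with 40.7 CPM per kb, and RpL24-like, RpL34a and RpS14b had 217, 276 and 301 CPM per kb. Over the tested genes apart from RpLP0-like and RpS15Ab, the median was 2120 CPM per kb. These low values belonged to second copies and to the assembly factors. RpL22 and RpL38, with 557 and 791 CPM per kb, were also well below the median.

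Several ribosomal proteins have a second or like-named gene in the fly, and 13 such pairs were examined by name. In 8 of them the second copy was at the edge of detection or below it: RpL10Aa and RpL7-like had 0 counts in all 8 libraries, and RpL22-like, RpL37b, RpS10a, RpS19b, RpS28a and RpS5b had at most 8 counts in any library. RpS28-like, also not tested, had at most 3. RpL7-like shares 1771 exonic bases with CG34164 on its own strand, so its 0 counts do not give its level. Some of these copies, such as RpL22-like, RpS5b, RpS10a and RpS19b, are known from the germline of Drosophila. RpS5b had 1, 3, 4 and 1 counts in uninduced and 6, 5, 8 and 6 counts in induced heads, with no overlap, but it was below the filter and was not tested, and its main copy RpS5a fell from 1511 ± 175 to 1179 ± 44.0 CPM (log2FC -0.36). A count of 0 allows up to 3 counts per library, for counting error only.

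In 5 pairs the rarer copy had enough counts to compare. The share of the pair carried by the rarer copy does not depend on the scaling of libraries. RpL34a carried 14.9% of the counts of RpL34a and RpL34b in uninduced and 15.2% in induced heads (means of 4, exact permutation p = 0.343). For RpS14b, which lies beside RpS14a on X, the share was 23.4% and 22.5% (exact permutation p = 0.200), a difference of -0.88 percentage points that was -0.39 without induced replicate 2. RpS15Ab carried 2.04% and 2.26% of its pair with RpS15Aa (exact permutation p = 0.0571). RpL24-like had 14.5% and 15.4% of the counts of its pair with RpL24 (exact permutation p = 0.0857), and RpLP0-like had 1.71% and 2.02% with RpLP0 (exact permutation p = 0.0571). The smallest p that 4 against 4 libraries allow in this two-sided test is 0.0286, the Benjamini-Hochberg adjusted p over the 5 pairs was 0.143 or higher, and the groups overlapped in every pair. Reads of near-identical copies can be split by the counting, so the separate levels of RpS14a and RpS14b, and of the other pairs, are uncertain.

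The ribosomal protein mRNAs are short, from 288 to 1400 bases with a median of 640, and fold change went with length. Over the 83 genes Pearson's r between mRNA length and log2FC was 0.45 and Spearman's rho 0.33, a description across genes that share the 8 libraries. The 77 genes with an mRNA of up to 1000 bases had a median log2FC of -0.31. The 6 longer ones, RpL3, RpL4, RpL5, RpL22, RpL23A and RpLP0, had a median of -0.18, with RpL5 at -0.36. Except for RpL5, those 6 are also genes for which uninduced replicate 4 was not the highest uninduced library, which held beyond them only for RpL38.

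Other short mRNAs were lower too. Among tested genes that are not ribosomal protein genes, the median log2FC was -0.11 for 348 genes with an mRNA of up to 500 bases, -0.11 for 535 genes of 500 to 700 bases, and 0.07 for 2502 genes above 3000 bases. Among those with a mean of at least 500 counts, the median was -0.28 for 69 genes of up to 500 bases, of which 71.0% fell, and -0.24 for 125 genes of 500 to 700 bases, of which 60.8% fell. The ribosomal protein genes in the same length classes had medians of -0.33 (8 genes, 87.5% fell) and -0.31 (42 genes, 97.6% fell). Between 700 and 1000 bases, 27 ribosomal protein genes had a median of -0.29 and 249 abundant other genes a median of -0.14. Thus the ribosomal protein genes were lower than other abundant genes of like length in each of these classes. The medians differed by 0.05 to 0.15 on the log2 scale, a difference that was not tested. Abundance was not matched beyond the minimum mean of 500 counts, whereas 70 of the 92 ribosomal protein genes had at least 10000 counts in every library.

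**Figure D3:**
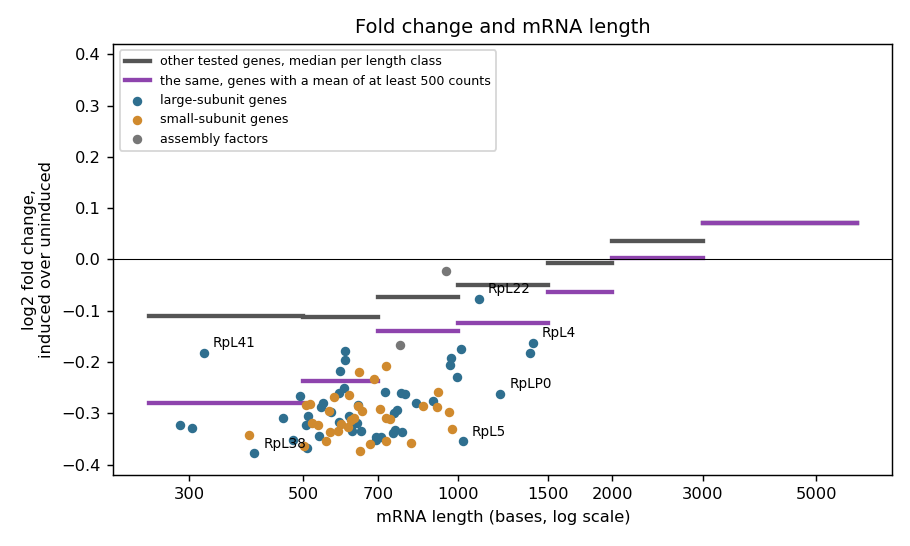
Log2 fold change against mRNA length (log scale) for the 83 ribosomal protein genes tested (points), with the median of other tested genes per length class (grey) and of other genes with a mean of at least 500 counts (purple). Medians of the other genes go from -0.11 for the shortest to 0.07 above 3000 bases, and the abundant short ones reach -0.28.

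The libraries differed in the same way before groups were compared. For 882 other genes with an mRNA below 700 bases, the median deviation from the uninduced mean on the log2 scale was -0.01, -0.04, -0.08 and 0.14 in uninduced replicates 1 to 4 and -0.10, -0.11, -0.14 and -0.09 in induced replicates 1 to 4. For 2502 genes above 3000 bases it was 0.01, 0.03, 0.05 and -0.09 in uninduced and 0.06, 0.07, 0.09 and 0.08 in induced libraries. Uninduced replicate 4 was thus high for short and low for long mRNAs. When a length trend per library, estimated from all other genes, was removed, 72 ribosomal protein genes fell and 0 rose, with a median of -0.19, where 19.9% of all genes fell and 18.2% rose. When the trend was estimated from other genes with a mean of at least 500 counts, 31 fell, 1 (RpL41) was higher, and the median was -0.09, beside a median of 0.05 for all genes tested, of which 16.3% fell and 24.2% rose. The 31 had RpL5 (-0.21), RpS5a (-0.18), RpS4 (-0.18) and RpS24 (-0.17) as the largest falls. Both of these settings were added after the data were seen, and a trend taken from abundant short genes removes whatever those genes share with the ribosomal protein genes.

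**Figure D4:**
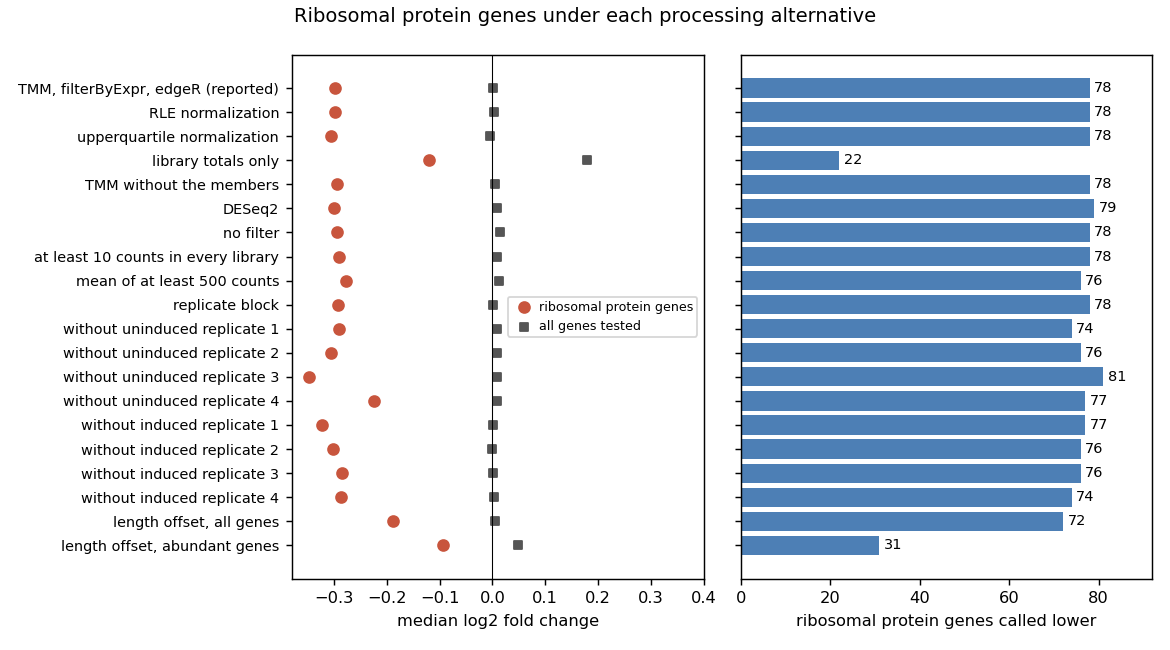
Median log2FC of the ribosomal protein genes and of all genes tested (left), and the number of ribosomal protein genes called lower (right), under the reported fit and each processing alternative. The count lies between 72 and 81 except for scaling to library totals alone (22) and for the length trend of abundant genes (31).

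Exons that overlap another gene were looked up, as none of the sources used here states whether the counting used strand. RpL22 shares 377 exonic bases with a noncoding RNA on its own strand, and RpL23A shares 421 with a host gene of small nucleolar RNAs on its own strand. On the opposite strand, RpS9 shares 512 and RpL3 412 bases with an antisense RNA. The values of these 4 genes can therefore hold reads of the partner, and RpL22, RpL23A and RpL3 were among the genes with the smallest changes.

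The ribosomal proteins outside the name pattern gave different calls. Rack1 fell from 1974 ± 92.6 to 1612 ± 71.9 CPM (SD, n = 4 each), a log2FC of -0.29 (SE 0.05, adjusted p = 7.0e-04 in edgeR). The sta gene had 2096 ± 108 CPM in uninduced and 1953 ± 76.3 CPM in induced heads, a log2FC of -0.10 that was not called (adjusted p = 0.16 in edgeR). Of 72 mitochondrial ribosomal protein genes tested, 12 fell and 1 rose, or 16.7% and 1.39%, with a median log2FC of -0.11. The largest fall among them was that of mRpL27, from 19.4 ± 2.20 to 14.8 ± 1.68 CPM (log2FC -0.39), and mRpS2 rose from 17.6 ± 0.349 to 20.8 ± 1.81 CPM (0.24), a call lost without induced replicate 1 (adjusted p = 0.062 in edgeR). Their share of falls was thus close to the background of 18.8%, while their share of rises was below the background of 17.7%. With DESeq2 only 3 of them fell and 1 rose, where 15% of all genes fell and 13.9% rose. Without uninduced replicate 4 the count was 4, where 17.7% of all genes fell. Without induced replicate 3 or 4 it was 5 each, where 17% and 16.6% of all genes fell. Without uninduced replicate 1 it was 7, and without uninduced replicate 3 it was 15, where 16% and 17.1% of all genes fell. With library totals alone 12 rose and 0 fell (median 0.07), where 45.3% of all genes tested rose and 8.82% fell (median 0.18). The sign of their median thus turned with the scaling, while it stayed below the median of all genes tested.

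Most of the listed genes that make ribosomes went the other way. Of 34 ribosome biogenesis genes, 23 rose and 1 fell, where 17.7% of all genes tested rose, and their median log2FC was 0.25. Their median level in uninduced heads was 24.0 CPM. The summed level of the list overlapped between groups, with 1663 to 1912 CPM in uninduced and 1754 to 1862 CPM in induced heads. The largest rise was that of l(3)72Dn, which had 13.5, 12.0, 12.8 and 13.5 CPM in uninduced and 20.5, 19.8, 19.3 and 20.2 CPM in induced heads (log2FC 0.62, SE 0.07, adjusted p = 7.4e-06 in edgeR). The RNA helicase gene kz rose from 10.7 ± 0.999 to 15.5 ± 1.11 CPM (0.53), Nop60B, the pseudouridine synthase of ribosomal RNA, from 56.1 ± 5.62 to 79.9 ± 5.04 CPM (0.51), and Fib, the fibrillarin methyltransferase, rose by 0.49 on the log2 scale. Fibrillarin's partners Nop56 (0.41) and nop5 (0.35) rose with it, as did eIF6 (0.46), which keeps the new large subunit from joining early, and RIOK1 (0.47), a kinase of late small-subunit maturation. Non1, a nucleolar GTPase, was the gene that fell, from 890, 821, 770 and 805 CPM to 648, 651, 628 and 617 CPM (log2FC -0.37). These mRNAs are longer than those of the ribosomal proteins, with a median of 1754.5 bases. After removal of the length trend of abundant genes 28 of the 34 rose, where 24.2% of all genes tested rose. Without induced replicate 1 the count was 18, the lowest of the fits that left out a library, where 15.4% of all genes rose.

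Of 4 genes of RNA polymerase I and its initiation, 2 (50%) rose, beside 17.7% of all genes tested: RpI1, the largest subunit, from 28.2 ± 1.68 to 38.1 ± 2.23 CPM (log2FC 0.43), and RpI135, the second largest, from 19.9 ± 1.36 to 27.1 ± 1.40 CPM (0.44). Of 17 regulators of growth and of ribosomal protein genes, 3 rose and 3 fell (17.6% each), close to the 17.7% and 18.8% of all genes tested, with a median of 0.01. Scaled to library totals alone, 10 rose and 0 fell, where 45.3% and 8.82% of all genes did. Myc, listed as dm in the deposited table, had 52.8, 49.2, 49.0 and 48.1 CPM in uninduced and 106, 101, 94.7 and 98.9 CPM in induced heads, a log2FC of 1.01 (SE 0.05, adjusted p = 2.9e-09 in edgeR). The induced libraries were all at about double the uninduced level, without overlap. Tor (0.15) and gig (0.16), which encodes a TOR inhibitor, rose slightly, and Rheb (-0.16), the TOR activator, and the genes of the TOR-regulated transcription factors REPTOR (-0.13) and REPTOR-BP (-0.22) fell slightly. Each of these 5 calls was lost without 1 or more single libraries (adjusted p = 0.051 to 0.14 in edgeR), and DESeq2 called 1 regulator higher and 1 lower. Trf2 and M1BP, factors that act at ribosomal protein promoters in Drosophila, had log2FCs of 0.06 and -0.02 and were not called, nor was Thor, the 4E-BP gene (0.06).

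Of 10 genes of ribosome stress and rescue, 4 (40%) rose and 2 (20%) fell, beside 17.7% and 18.8% of all genes tested, with a median log2FC of 0.17, so the share that fell was near the background. Library totals alone gave 8 higher and 0 lower, where 45.3% of all genes tested rose and 8.82% fell. Xrp1 had 500, 523, 525 and 462 CPM in uninduced and 989, 931, 937 and 924 CPM in induced heads, a log2FC of 0.91 (SE 0.05, adjusted p = 1.4e-08 in edgeR). No values overlapped, and the induced libraries were far above the highest uninduced one. Irbp18, its partner, rose from 19.4 ± 1.51 to 29.3 ± 1.95 CPM (0.60). Clbn, of the ribosome quality control complex, rose from 52.6 ± 1.42 to 74.2 ± 3.20 CPM (0.50), and HBS1, which helps to rescue stalled ribosomes, from 32.3 ± 0.609 to 41.1 ± 2.56 CPM (0.34). The ribosome recycling factor gene pix (-0.18) and crc, the fly ATF4 gene (-0.14), fell, the latter with adjusted p = 0.050 to 0.063 in edgeR in the 5 fits without uninduced replicate 1 or any 1 of the induced libraries.

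**Figure D5:**
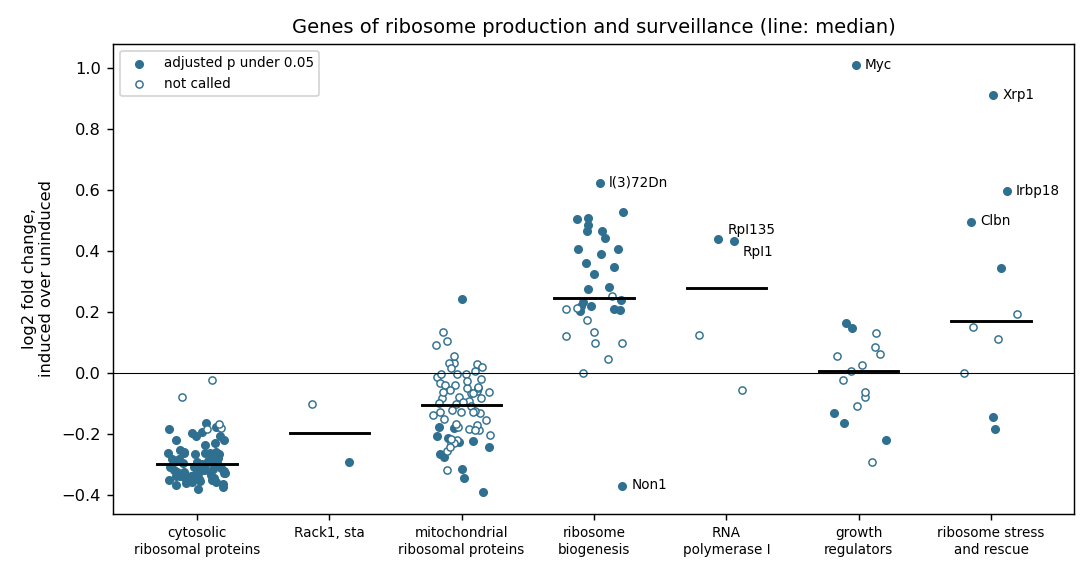
Log2 fold change of each tested gene of the cytosolic ribosomal proteins and of 6 related lists, with filled points for genes with an adjusted p under 0.05 and a line at each median. The ribosomal proteins lie at a median of -0.30, ribosome biogenesis genes at 0.25, and Myc (1.01) and Xrp1 (0.91) are the highest points.

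Markers of other head cell types moved between the same libraries. Of 8 fat body markers tested (of 12 listed), 7 (87.5%) fell, where 18.8% of all genes fell and 17.7% rose, with a median log2FC of -0.46, and the list summed to 139824 to 150452 CPM in uninduced and 89991 to 114499 CPM in induced heads. All 5 haemocyte markers fell, with a median of -0.84 and sums of 162 to 193 and 88.0 to 164 CPM. Photoreceptor markers (1 of 8 fell, 0 rose) had a median of 0.02, neuron markers (2 of 10 rose, 2 fell) a median of 0.02, muscle markers (1 of 6 rose, 0 fell) a median of 0.02 and glia markers (3 of 7 rose, 2 fell) a median of 0.13. The counts for photoreceptor, neuron and muscle markers are near the shares of all genes tested. The largest change in each list was that of Lsp2, a storage protein of the fat body (from 2609 ± 795 to 118 ± 39.7 CPM, log2FC -4.47), Eaat1, the glial glutamate transporter (from 450 ± 4.53 to 245 ± 8.74 CPM, -0.88), Rh4, a rhodopsin (-0.39), Cha, the choline acetyltransferase of cholinergic neurons (0.29), Act88F, a flight muscle actin at 1.99 ± 0.387 and 4.00 ± 0.979 CPM (1.01), and PPO1, a prophenoloxidase (-1.04, and -1.63 without induced replicate 3). No marker of these lists was at 0 in all libraries, and of 2 further defining markers ninaE, the main rhodopsin of photoreceptors, had 26943 ± 728 and 27395 ± 631 CPM and nSyb, of neuronal synapses, 925 ± 76.0 and 937 ± 15.9 CPM (SD, n = 4 each, uninduced and induced; log2FC 0.02 each, not called). The part of these cell types in the lower level of ribosomal protein mRNAs was not tested.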

How the data were processed

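RNA of 8 libraries (4 per group) was sequenced from polyA RNA by the authors, who aligned the reads to Dm6; no aligner, counting tool, annotation or use of strand is given in the sources used here. The deposited raw counts per gene were used, one column per library. Not used were 8 columns of normalised values per library and the authors' DESeq2 fold changes and p-values.

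Tests were run on the counts in R 4.3.3 with edgeR 4.0.16 (TMM, filterByExpr, quasi-likelihood test, adjusted p under 0.05 over 9905 genes). Standard errors are the absolute log2 fold change over the square root of F, ± is the SD, and exact tests used log2 of CPM plus 0.1 or shares. The scripts were tested on simulated data. Replicates are labelled biological. Coordinates and mRNA lengths (the shortest transcript with the longest coding sequence) are those of the Ensembl annotation in dm6 coordinates, in which all 92 names were matched.

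The genes and lists were chosen with earlier results of these data known; of 194 list genes written, 191 were matched. Named genes are the 5 largest and 5 smallest falls, second copies, stalk and ubiquitin fusion genes, common reference genes, genes highest or lowest per kb, and the largest change of each list; RpS25, RpS12, RpL11, RpL10, RpS4 and further list genes were chosen after their values were seen. Alternatives were DESeq2 1.42.0, other scalings and filters, a replicate block, leaving out each library and 2 length trends. Promoter motifs were not analysed here.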

Additional observations from a re-analysis of the deposited data

Results flagged for a closer look

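RpL31 had 1146 CPM in induced replicate 1, against 1054, 1061 and 1066 CPM in the other induced libraries, so that 1 induced sample lay far from the others. All 4 values were below the lowest uninduced value of 1209 CPM. Of 86 groups of 4 libraries examined in this way, 1 was flagged, where chance gives about 4.3.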

How the results depend on the processing

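Under RLE or upper quartile normalization, TMM without the ribosomal protein genes, no filter and at least 10 counts in every library, 78 ribosomal protein genes fell in each. DESeq2 gave 79 and a mean of at least 500 counts 76, and the share of all genes that fell was 12.3 to 26.4% over these settings other than DESeq2. The labels' replicate numbers did not pair the samples (correlations of same-numbered deviations from -0.07 to 0.03), and with the replicate number as a block 78 fell and no call among them changed. Leaving out each library in turn gave 74 to 81 genes that fell and medians of -0.35 to -0.22, where 16 to 17.7% of all genes fell. Scaling to library totals gave 22 and a median of -0.12, the length trend of all genes 72 and -0.19, and that of abundant genes 31 lower, 1 higher and -0.093; the cause was not tested. The difference in the share of counts, induced minus uninduced, was -0.815 percentage points and became -1.68 without the 20 most abundant other genes, and -1.15 to -0.489 without single libraries (-0.489 without uninduced replicate 4).

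With library totals these log2 fold changes turned sign: RpL23A (0.00030), RpL4 (0.013), RpL24-like (0.013), RpLP0-like (0.16), RpL22 (0.10), sta (0.075) and M1BP (0.16). The length trend of all genes turned RpLP0-like (0.055), Trf2 (-0.021) and M1BP (0.016). That of abundant genes turned RpL34a (0.018), RpL24-like (0.016), RpLP0-like (0.13), RpL22 (0.058), RpLP2 (0.035), RpL41 (0.12), sta (0.043), Trf2 (-0.021) and M1BP (0.079). Without single libraries, RpLP0-like ranged from -0.062 to 0.025 and M1BP from -0.042 to 0.0084.

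Of the 72 mitochondrial ribosomal protein genes tested, 12 fell in the reported fit, 3 with DESeq2, 7 with no filter and 0 with library totals. Of all genes tested, 18.8%, 15%, 12.3% and 8.82% fell in these fits. With the length trends of all and of abundant genes 2 and 0 fell, where 19.9% and 16.3% of all genes did. Without single libraries 4 to 15 fell, where 16 to 17.7% of all genes did. At a mean of at least 500 counts only 8 were tested and 0 fell, where 26.4% of all genes did. Mitochondrial ribosomal protein genes that rose went from 1 to 12 with library totals and to 10 with the length trend of abundant genes. The median went from -0.11 to 0.07 in both. Of all genes tested, 45.3% rose with library totals and 24.2% with that trend, with medians of 0.18 and 0.05. Ribosome biogenesis genes that rose numbered 23, and 8 of the 11 left by a mean of at least 500 counts. In the latter setting 27.8% of all genes tested rose. Without single libraries the induced minus uninduced share of the rarer copy, in percentage points, ranged from 0.189 to 0.274 for RpS15Ab, 0.587 to 1.09 for RpL24-like, 0.256 to 0.372 for RpLP0-like, 0.112 (without uninduced replicate 3) to 0.362 (without uninduced replicate 4) for RpL34a and -1.25 (without induced replicate 4) to -0.392 (without induced replicate 2) for RpS14b; for RpL34a the reported value was 0.214. Depth limited the second copies with at most 8 counts in a library.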
